A study of Mus musculus with 6 samples.

Results

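Club cells were the 502 cells, of 61839 in all, that the deposited cell annotation calls Club in an scRNA-seq study of the developing mouse lung. The rule was the annotation alone. The study profiled dissociated whole lungs of 36 wild-type C57BL/6 pups at postnatal day (P) 3, 7 and 14, with 6 mice for each age and oxygen level. Normoxic pups were raised in room air (21% O2) and hyperoxic pups in normobaric hyperoxia (85% O2) from the day of birth, which arrests alveolarization and serves as a model of bronchopulmonary dysplasia. Nursing dams were moved between both environments, so the dams of every group also breathed high oxygen. Cells of each mouse carried a lipid-anchored MULTI-seq barcode and 6 libraries were prepared from 5 pools of mice, each pool holding normoxic and hyperoxic mice of the same age or ages. The groups held 83 Club cells at P3 in normoxia and 107 in hyperoxia, 66 and 89 at P7, and 65 and 92 at P14.

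Club cells are secretory cells of the conducting airways. They release secretoglobins and other host defence proteins into the airway lining fluid, carry cytochrome P450 enzymes that metabolize inhaled compounds, and can self-renew and give rise to ciliated cells after injury. A subset of airway secretory cells makes gel-forming mucins, and this mucous programme is known to mature after birth in the mouse.

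The annotation matched its markers. All 502 Club cells held a UMI of Scgb1a1, the club cell secretory protein, and 494 held UMIs of Scgb1a1, Scgb3a2 and Cyp2f2 together, while the other 8 held UMIs of 2 of these genes. The median level per cell was 341100 CPM (UMI counts scaled to 1000000 per cell or, below, per mouse) for Scgb1a1, 23950 CPM for Scgb3a2, a second secretoglobin, and 3020 CPM for Cyp2f2, the cytochrome P450 characteristic of mouse Club cells. A UMI of Scgb1a1 was also found in 96.2% of AT2 cells and 91.9% of AT1 cells, but at medians of 465.8 and 1247 CPM. In ciliated cells, the nearest type (median depth 12610 UMIs), Scgb1a1 had a UMI in 99.6% of cells (median 3340 CPM), Scgb3a2 in 78.5% (324 CPM) and Cyp2f2 in 81.0% (712.9 CPM). Cyp2f2 had a UMI in 99.6% of Club cells (median depth 24410 UMIs), 12.5% of AT2 cells (9297 UMIs) and 3.91% of AT1 cells (2056 UMIs).

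Club cells had the highest median depth of the 34 cell types, 24406 UMIs and 3552 genes per cell against 4462 UMIs over all cells. No Club cell barcode was shared between libraries, and in 460 of the 502 cells the assigned sample barcode was also the most abundant. The most abundant barcode took over 50% of a cell's barcode reads in 292 of the 502 cells (median 54.2%). The replicate was the mouse. Counts of its Club cells were summed, and 26 mice with at least 10 Club cells (437 cells) entered the tests: 4 normoxic and 5 hyperoxic mice at P3, 3 and 5 at P7, and 4 and 5 at P14. Their sums ran from 240028 to 1095638 UMIs, with a median of 374374.5. One hyperoxic P7 mouse, with only 125 cells of any type, had no Club cell.

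Secretory products dominated the Club cell transcriptome. Scgb1a1 took 34.9% of the UMIs of all 502 Club cells, and 14.2% to 46.5% of those of a mouse, followed by Scgb3a2 with 56090 ± 20900 CPM (SD, n = 26). Next among nuclear protein-coding genes came the protease inhibitor homologue Wfdc2 (10060 ± 2031 CPM), the mucous-type secretoglobin Scgb3a1 (9973 ± 8576 CPM), the carbonyl reductase Cbr2 (7211 ± 1304 CPM) and haptoglobin, Hp (6103 ± 2194 CPM). The spread of Scgb3a1 between mice was nearly as large as its mean. Of 1510 genes with at least 50 CPM in Club cells, 67 were highest there among 33 types with at least 10 cells in a mouse. The highest ratios to the next type, always ciliated cells, belonged to the chitinase-like gene Chil4 (12, with 1298 of its 1344 UMIs in the normoxic P14 mice and a UMI in 14 of the 502 cells), the antibacterial lectin Reg3g (9.29), the airway defence protein Bpifb1 (8.07), the goblet cell gene Clca1 (8.0) and Scgb3a1 (7.56). These levels describe the cluster and were not tested. Chil4 closely resembles Chil3 in sequence, so reads of the 2 genes may have been divided uncertainly.

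The border with ciliated cells was not sharp. Of 894 cells annotated as ciliated, 248 (27.7%) held more than 100000 CPM of Scgb1a1, a limit set after the values were seen and exceeded by 447 of the 502 Club cells. These 248 cells had a median of 41760 UMIs, against 24410 in Club cells and 8519 in the remaining ciliated cells. The summed level of 12 ciliated cell genes had a median of 4128 CPM in them, between 452 CPM in Club cells and 12190 CPM in the remaining ciliated cells. They made up 41 of 193 ciliated cells in normoxia and 61 of 194 in hyperoxia at P3, 21 of 117 and 36 of 117 at P7, and 61 of 143 and 28 of 130 at P14, so the larger share was in hyperoxia at P3 and P7 and in normoxia at P14. What these cells are was not tested.

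The share of Club cells among all lung cells was compared because hyperoxia could change how many of them a lung holds. At P3 the share was 0.892% ± 0.449 (SD, n = 6) in normoxia and 1.01% ± 0.498 in hyperoxia, and at P7 0.651% ± 0.285 and 0.836% ± 0.530. At both ages the groups overlapped (adjusted p = 0.818 and 0.688 by two-sided exact permutation tests, adjusted over 34 types and 3 ages). At P14 the share ran from 0.329% to 0.594% in the normoxic mice and from 0.870% to 1.19% in the hyperoxic mice, so the groups did not overlap. The exact permutation p of 0.00216 is the smallest that 6 against 6 mice allow (adjusted p = 0.0245), and the hyperoxic mean was higher by 0.539 percentage points in one P14 pool and by 0.466 in the other. Of epithelial cells, Club cells made up 3.625% ± 0.635 at P14 in normoxia and 6.456% ± 0.655 in hyperoxia (exact permutation p = 0.00216, adjusted p = 0.0216). Among Club and ciliated cells together, Club cells made up 31.3% ± 7.87 at P14 in normoxia and 41.5% ± 8.29 in hyperoxia (exact permutation p = 0.0606, adjusted p = 0.182). When the 248 Scgb1a1-high ciliated cells were counted as Club cells, an alternative added after seeing the data, the P14 shares became 0.994% ± 0.245 and 1.31% ± 0.159 (SD, n = 6; exact permutation p = 0.0303, adjusted p = 0.107). The call of a higher share at P14 therefore rested on where the annotation placed these cells. In normoxia the share was lower at P14 than at P3, 0.494% ± 0.0965 against 0.892% ± 0.449 (SD, n = 6; exact permutation p = 0.00866, adjusted p = 0.0442). It missed the threshold as a share of epithelial cells (adjusted p = 0.353) and with the 248 ciliated cells counted (adjusted p = 0.579), and age and pool cannot be told apart here. Normoxic P3 mouse 1 had a share of 1.78%, against 0.524% to 0.882% in the others of its group, and its weight in this difference was not tested. A share is relative to the other cells recovered and is not an absolute number.

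**Figure D1:**
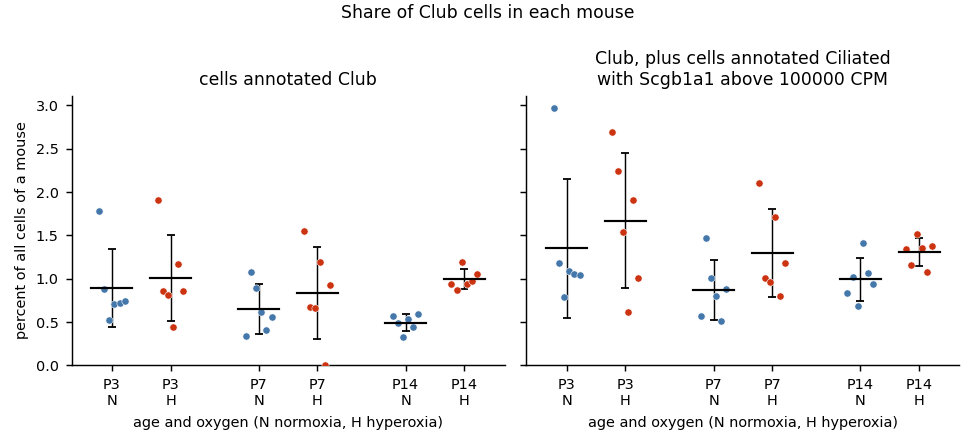
Club cells as a percentage of all cells of each mouse (vertical axis, percent) in the 6 groups of age and oxygen level, with 1 point for each mouse and the mean ± SD of 6 mice. At P14 the hyperoxic mice lie between 0.870% and 1.19% and the normoxic mice between 0.329% and 0.594%, whereas the groups overlap at P3 and P7.

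Hyperoxia changed the transcriptome of Club cells at the ages tested together. With age as a covariate, 302 of 4238 genes (7.13%) were called, meaning an adjusted p below 0.05 in edgeR's quasi-likelihood test and detection in no fewer than 10% of Club cells at either oxygen level. Of these, 162 (3.82%) were higher and 140 (3.3%) were lower in hyperoxia. The count was 56 with at least 15 Club cells per mouse, 196 with 10 cells from each mouse, 165 with UMIs thinned to the mouse with the fewest per cell, and 145, 136 and 195 without the P3 and P7 pool, P14 pool 1 and P14 pool 2. The filter on low counts kept genes that reached 10 counts at the median depth in at least 3 mice, so a gene could pass through the mice of 1 oxygen level alone, meaning that fewer than 3 mice of the other level reached the limit. A gene admitted in this way by the group where it is high is favoured to differ. Among called genes whose mean log2 CPM reached 5, the 12 largest increases were in Cxcl5, Spink5, Lcn2, Cox6b2, Slpi, Cdkn1a, Ccng1, Phlda3, Chil1, Ly6a, Lrg1 and Cbr3. By the same limit the 12 largest decreases were in Tff2, Chia1, Scgb1c1, Socs3, Klf4, B430010I23Rik, Cyp4b1, Sec14l3, Nav2, Txnip, Zfp36 and Col23a1. Fold changes below are log2 values on the TMM scale with their SE, while levels are CPM of the summed counts without TMM factors. These factors ran from 0.7754 to 1.12 in the normoxic and from 0.7905 to 1.22 in the hyperoxic mice. A ratio of levels therefore differs from the fold change. Ranges and counts of mice above or below others are on the CPM scale, where a lower Scgb1a1 raises the level of other genes. A complete separation of the 15 hyperoxic from the 11 normoxic mice was rare: 7 of the 4238 genes (0.165%) were higher in every hyperoxic mouse, namely Ccng1, Ftl1, Gpx2, Ifitm3, Ndufc1, Renbp and Slc25a5, and 0 (0.0%) were lower in every one. Ndufc1, Renbp and Slc25a5 are named because of this separation, after their values were seen.

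Genes known as targets of p53, the transcription factor that responds to DNA damage, were among those that rose. Of 20 tested members of a p53 and DNA damage list, 11 rose and 0 fell, against 3.82% and 3.3% of all genes. However, 10 of the 20 passed the filter on low counts only through hyperoxic mice, where a rise is favoured, and of the 10 that passed at both oxygen levels 5 rose and 0 fell. Ccng1, Phlda3, Gdf15, Zmat3, Aen and Psrc1 were the genes called among those that passed only through hyperoxic mice, so their values are best read as a description. Ccng1 encodes cyclin G1, a direct p53 target. Its level ran from 16.7 to 37.2 CPM in normoxic mice (median 23.3) and from 58.7 to 121.3 CPM in hyperoxic mice (median 87.8). No normoxic mouse reached the lowest hyperoxic mouse, and Ccng1 had the lowest adjusted p of the genes named here (1.74 ± 0.13, adjusted p = 8.54e-11, edgeR). Cdkn1a, the cell cycle inhibitor p21, ran from 3.72 to 130.8 CPM (median 58.3) against 128.3 to 442.7 CPM (median 225.9). In 14 of 15 hyperoxic mice it exceeded every normoxic mouse (1.74 ± 0.30, adjusted p = 0.000332, edgeR). Phlda3, an inhibitor of AKT signalling (1.69 ± 0.24), and Bax, a promoter of apoptosis (1.08 ± 0.13), also exceeded every normoxic mouse in 14 of 15 hyperoxic mice. The other members that rose were Gdf15, Zmat3, Ei24, Aen, Rps27l, Ephx1 and Psrc1, with log2 fold changes from 0.43 for Ei24 to 2.43 for Gdf15. Ei24 lay at the threshold (adjusted p = 0.0498, edgeR).

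The promoters of these genes were searched because p53 binds a defined DNA element. A promoter was taken as 250 bases before to 50 after the transcript start in RefSeq (GRCm38.p6), and 10 of the 11 genes that rose had an entry. The p53 decamer, the 10-letter unit of a p53 response element, was found on either strand in 6 of the 10 (60.0%), namely Cdkn1a, Ccng1, Bax, Ei24, Aen and Rps27l, against 9.55% of 27025 promoters. The list was made of known p53 targets, so this is a description of the list and not of a response. Windows around the decamer (capitals) of the first 3 genes are shown on the strand of the gene. They lie at chr17:29090903-29090962 (+), chr11:40755437-40755496 (-) and chr7:45467065-45467124 (-), with the decamer starting 51, 185 and 201 bases before the transcript start.
Cdkn1a: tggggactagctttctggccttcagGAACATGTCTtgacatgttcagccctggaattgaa
Ccng1: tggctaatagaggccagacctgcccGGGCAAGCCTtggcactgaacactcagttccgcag
Bax: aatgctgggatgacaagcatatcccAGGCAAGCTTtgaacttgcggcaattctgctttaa

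Antioxidant genes rose alongside. NRF2 is the transcription factor that induces glutathione synthesis, thioredoxin and NADPH-producing enzymes under oxidative stress. Of 35 tested members of an oxidative stress and NRF2 list, 18 rose and 1 fell, against 3.82% and 3.3% of all genes. Of the 29 that passed the filter at both oxygen levels, 15 rose and 1 fell, and Nqo1, Hmox1 and Srxn1 passed only through hyperoxic mice. Gpx2, the epithelial glutathione peroxidase, ran from 97.6 to 207.7 CPM in normoxic mice (median 137.5) and from 269.1 to 580.2 CPM in hyperoxic mice (median 418.5). Ftl1, the ferritin light chain that stores iron, ran from 1385 to 2434 CPM (median 1825) against 2733 to 5361 CPM (median 3852). Both genes separated the 2 oxygen levels completely (Gpx2 1.34 ± 0.14, adjusted p = 1.25e-07; Ftl1 0.91 ± 0.11, adjusted p = 1.35e-06, edgeR).

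Both subunits of glutamate-cysteine ligase, which makes the first step of glutathione synthesis, rose. The catalytic subunit Gclc ran from 61.3 to 210.3 CPM in normoxia (median 169.2) and from 208.5 to 570.4 CPM in hyperoxia (median 440.8), and the modifier Gclm from 30.3 to 66.7 CPM (median 48.3) against 66.0 to 190.6 CPM (median 101.7). For each subunit 14 of 15 hyperoxic mice exceeded every normoxic mouse (Gclc 1.2 ± 0.16, Gclm 0.98 ± 0.17). The quinone reductase Nqo1, a standard NRF2 target, ran from 0 to 13.9 CPM (median 4.71) against 4.09 to 53.7 CPM (median 32.0), with 13 hyperoxic mice above every normoxic mouse (2.27 ± 0.37, adjusted p = 0.000193, edgeR). Sulfiredoxin, Srxn1 (1.42 ± 0.26), heme oxygenase 1, Hmox1 (1.28 ± 0.34), esterase D, Esd (1.09 ± 0.14), glutathione reductase, Gsr (0.78 ± 0.12), and transaldolase, Taldo1 (0.91 ± 0.11), rose as well. Nqo1, Srxn1 and Hmox1 passed the filter only through hyperoxic mice, where a rise is favoured, so their values are best read as a description. The remaining members that rose, Txnrd1, Txn1, Pgd, Prdx1, Blvrb, Sod2, Gpx1 and Gpx4, had log2 fold changes between 0.32 for Prdx1 and 0.64 for Blvrb. The small MAF protein Maff fell (-0.65 ± 0.17, adjusted p = 0.0139, edgeR).

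The core of the antioxidant response element, TGACNNNGC on either strand, was found in 5 of the 15 genes that rose and had a RefSeq promoter (33.3%), against 14% of 27025 promoters. The list was chosen for oxidative stress and NRF2, so this is a description of the list and not of a response. A comparison with the genes tested in Club cells was void because only 3361 of those 4238 had a promoter entry. Among these 3361 the core was more frequent than among all promoters. The 5 genes were Gclm, Txnrd1, Srxn1, Pgd and Prdx1. Its first letters are shared with the AP-1 motif TGACTCA, which was not searched, and a match is no evidence of binding. Windows of 3 of them are shown on the gene's strand, where the capitals read as the reverse complement of the core, at chr3:122245398-122245456 (+), chr10:82859089-82859147 (+) and chr4:116685441-116685499 (+), with the match starting 134, 92 and 133 bases before the transcript start.
Gclm: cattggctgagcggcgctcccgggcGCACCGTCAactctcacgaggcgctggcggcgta
Txnrd1: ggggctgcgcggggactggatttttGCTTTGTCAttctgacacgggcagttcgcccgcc
Prdx1: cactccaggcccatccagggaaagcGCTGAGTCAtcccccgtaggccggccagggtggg

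**Figure D2:**
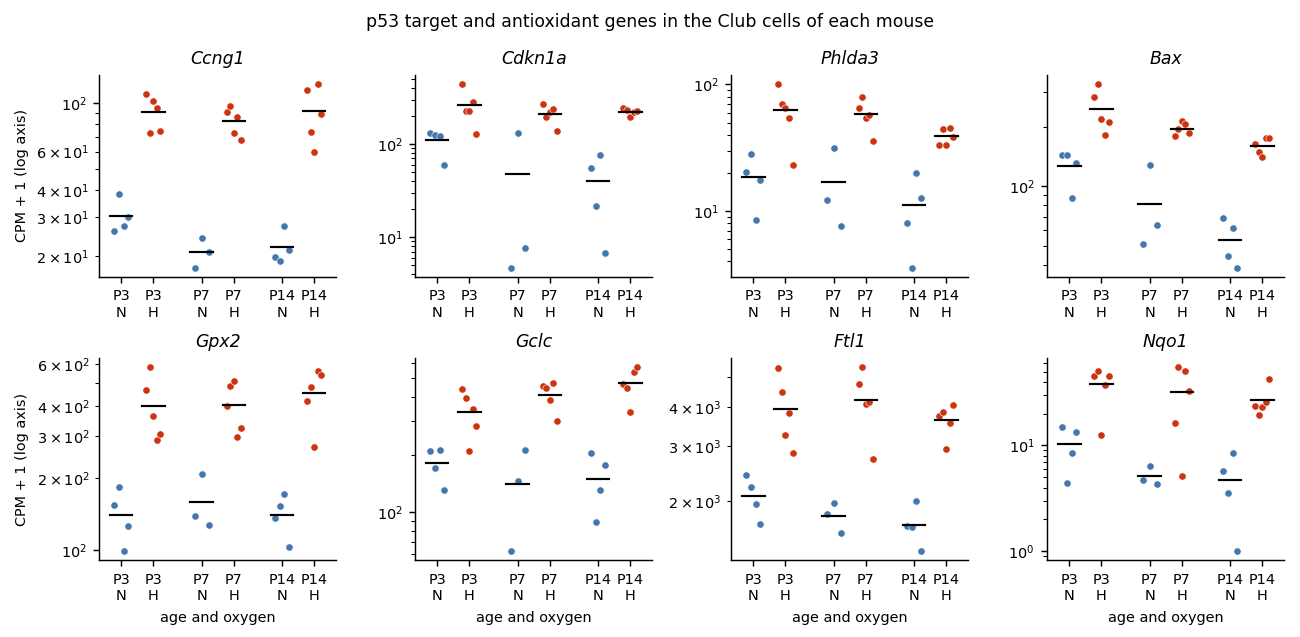
Levels of p53 target and antioxidant genes in Club cells (vertical axis, CPM + 1 on a log scale), with 1 point for each of the 26 mice by age and oxygen level (N, blue, normoxia and H, red, hyperoxia) and bars at the group mean. For Ccng1 the hyperoxic mice lie between 58.7 and 121.3 CPM and the normoxic mice between 16.7 and 37.2 CPM, and Gpx2 and Ftl1 separate in the same way.

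The neutrophil-attracting chemokine Cxcl5 and the antimicrobial gene Lcn2 were among the largest increases. Of 25 tested chemokine, cytokine and acute phase genes, 8 rose and 1 fell, against 3.82% and 3.3% of all genes. Of the 19 that passed the filter at both oxygen levels 6 rose and 1 fell. Cxcl16 and Lrg1, which rose too, passed only through hyperoxic mice. The related chemokines Cxcl1, Cxcl2 and Cxcl3 of the list were not called. Cxcl1 lay below the normoxic median in 9 and Cxcl2 in 12 of the 15 hyperoxic mice, and Cxcl3 lay above it in 11. Cxcl5 encodes a chemokine that recruits neutrophils. It ran from 4.17 to 69.9 CPM in normoxic mice (median 18.9) and from 14.5 to 545.7 CPM in hyperoxic mice (median 201.8), and 11 of the 15 hyperoxic mice exceeded every normoxic mouse (3.20 ± 0.51, adjusted p = 0.000125, edgeR). At P7 its levels were 7.43, 10.8 and 6.64 CPM in the 3 normoxic mice and 545.7, 523.1, 155.6, 188.1 and 386.6 CPM in the 5 hyperoxic mice. At P3 it was low in 3 of 5 hyperoxic mice, with 52.5, 14.5 and 22 CPM beside 349.6 and 333.4 CPM.

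Lcn2, the siderophore-binding protein lipocalin 2, ran from 26.3 to 408.4 CPM (median 109.9) against 172.3 to 3786 CPM (median 812.8), above every normoxic mouse in 14 hyperoxic mice (2.5 ± 0.43, adjusted p = 0.000272, edgeR). Chil1, a chitinase-like lectin, ran from 120.2 to 735.4 CPM (median 497.9) against 311.7 to 4331 CPM (median 1538), above every normoxic mouse in 13 (1.59 ± 0.27, adjusted p = 0.000258). Chil1 is also made by AT2 cells, and the summed level of 12 AT2 genes in the Club cell counts ran from 830 to 29100 CPM in normoxic and from 1560 to 28000 CPM in hyperoxic mice. Complement C3 (0.56 ± 0.14) and the cytokine Mif (0.69 ± 0.13) rose too, as did Lrg1 (1.57 ± 0.41) and the chemokine Cxcl16 (0.68 ± 0.20) with the limit given above. Socs3, the feedback inhibitor of STAT3 signalling, fell from a median of 297.8 to 143.6 CPM (-1.29 ± 0.24, adjusted p = 0.000827, edgeR).

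Of 14 tested protease inhibitors 3 rose and 0 fell, against 3.82% and 3.3% of all genes, with a median of 0.0997. Spink5 encodes LEKTI, an inhibitor of kallikrein proteases. It ran from 3.72 to 169.7 CPM in normoxic mice (median 75.1) and from 65.6 to 1347 CPM in hyperoxic mice (median 512.2), and 12 hyperoxic mice exceeded every normoxic mouse (2.61 ± 0.40, adjusted p = 9.12e-05, edgeR). At P7 it rose by 3.76 ± 0.63 (adjusted p = 0.00252, edgeR), with 3.72, 41.2 and 106.2 CPM in the 3 normoxic mice tested and 1000, 466.6, 511.7, 948.3 and 512.2 CPM in hyperoxia. The groups separated at P7 and P14 but not at P3, and the share of all genes that did so was not counted. At P14 the normoxic mice had 169.7, 25.7, 132.6 and 8.73 CPM and the hyperoxic mice 982.9, 738.2, 706.1, 981.4 and 1347 CPM, whereas at P3 the ranges of 70.8 to 91.8 CPM and 65.6 to 261.9 CPM overlapped. Slpi, the secretory leukocyte protease inhibitor (1.75 ± 0.44), and cystatin B, Cstb (0.60 ± 0.15), were the other members that rose.

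Of 11 tested interferon response and antigen presentation genes, 5 rose and 0 fell, against 3.82% and 3.3% of all genes. Of the 9 that passed the filter at both oxygen levels 4 rose, since Bst2 passed only through hyperoxic mice. The 5 genes were the membrane antiviral factors Ifitm3, Ifitm1 and Bst2 and the class I genes B2m and H2-K1. Ifitm3 ran from 129.6 to 220.9 CPM in normoxia and from 230.0 to 503.2 CPM in hyperoxia without overlap, although its log2 fold change was modest (0.48 ± 0.11, adjusted p = 0.0068, edgeR). Ly6a, the surface protein Sca-1, which is interferon inducible in many cells, rose by 1.58 ± 0.29, with 6 hyperoxic mice above every normoxic mouse.

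**Figure D3:**
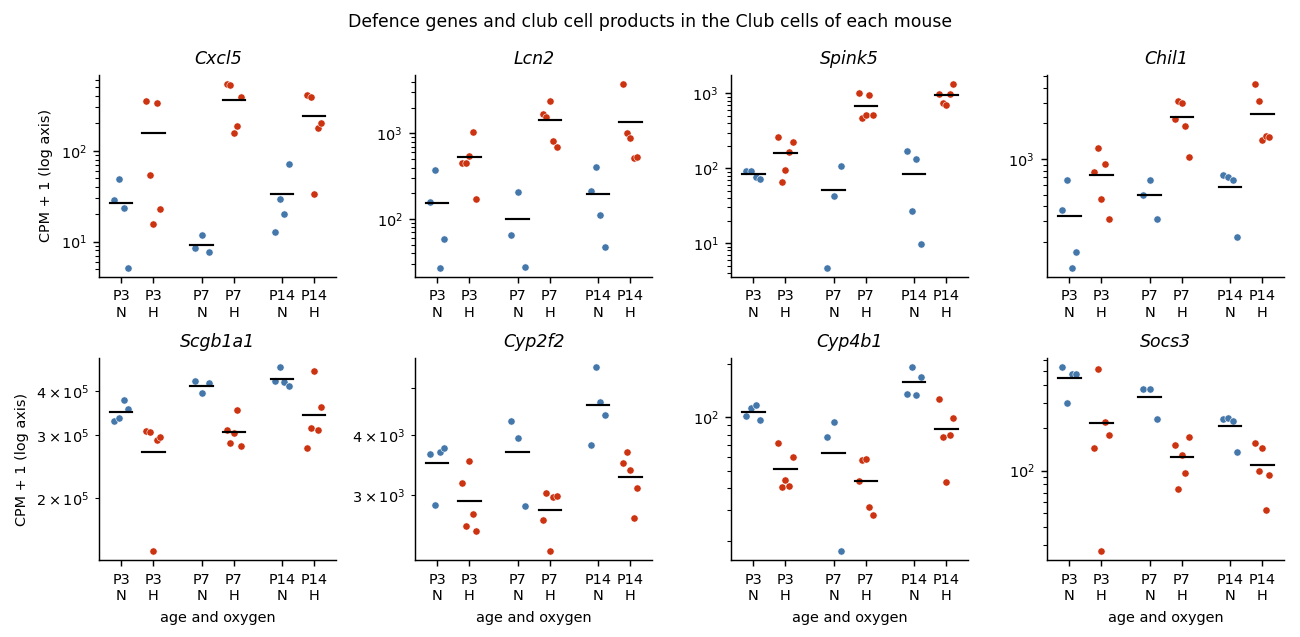
Levels of defence genes and of Club cell products (vertical axis, CPM + 1 on a log scale), with 1 point for each of the 26 mice by age and oxygen level (N, blue, normoxia and H, red, hyperoxia) and bars at the group mean. Spink5 lies between 706.1 and 1347 CPM in the P14 hyperoxic mice and between 8.73 and 169.7 CPM in the P14 normoxic mice, while Scgb1a1 is lower in most hyperoxic mice.

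The characteristic Club cell products did not move together. Of 23 tested secretory products 2 rose and 2 fell, against 3.82% and 3.3% of all genes, with a median of 0.209. Scgb1a1 ran from 328200 to 464800 CPM in normoxic mice (median 411900) and from 142100 to 454100 CPM in hyperoxic mice (median 306400). In hyperoxia 12 of the 15 mice lay below every normoxic mouse (-0.54 ± 0.12, adjusted p = 0.00386, edgeR). Scgb3a2 ran from 30780 to 59900 CPM against 26690 to 124100 CPM and did not pass the test (0.27 ± 0.16, adjusted p = 0.368, edgeR), nor did Scgb3a1 (-0.33 ± 0.59, adjusted p = 0.822). Reg3g ran from 108.4 to 2942 CPM (median 646.6) against 61.4 to 6320 CPM (median 3227) and also missed the threshold (1.45 ± 0.55, adjusted p = 0.116). The 2 products that rose were chemokines, Cxcl15, known as lungkine (0.79 ± 0.20), and Cxcl17 (0.90 ± 0.22). Because Scgb1a1 took up to 46.5% of the UMIs of a mouse, a lower Scgb1a1 raises the CPM of other genes, which the TMM scale takes into account.

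Among 31 tested genes of xenobiotic metabolism 5 rose and 3 fell, against 3.82% and 3.3% of all genes. Among the 30 that passed the filter at both oxygen levels 5 rose and 2 fell, since Sult1a1 passed only through normoxic mice. The 3 that fell were the cytochromes P450 Cyp2f2 and Cyp4b1 and the sulfotransferase Sult1a1. Cyp2f2 ran from 2853 to 5508 CPM in normoxic mice (median 3818) and from 2299 to 3683 CPM in hyperoxic mice (median 2992), with 6 hyperoxic mice below every normoxic mouse (-0.57 ± 0.09, adjusted p = 0.000193, edgeR). Cyp4b1 ran from 16.6 to 190.1 CPM against 27.1 to 126.5 CPM (-1.07 ± 0.17) and Sult1a1 from 3.32 to 47.1 CPM against 2.05 to 44.0 CPM (-1.36 ± 0.34), both with overlapping ranges. Those that rose were the carbonyl reductases Cbr3 (1.5 ± 0.20) and Cbr1 (0.68 ± 0.12), the epoxide hydrolase Ephx1 (0.79 ± 0.17) and the glutathione transferases Mgst3 (0.69 ± 0.15) and Gsta3 (0.42 ± 0.13). Cbr1 exceeded every normoxic mouse in 14 hyperoxic mice and Cbr3 in 13.

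The number of genes called at a single age grew from P3 to P14, although the ages were not shown to differ. At P3, 6 of 4238 genes (0.142%) were called, of which Ccng1, Gpx2, Gsta3 and Ftl1 rose (0.0944%) and the signalling adaptor Myd88 (-1.34 ± 0.28) and Dynlrb2 (-2.94 ± 0.63) fell (0.0472%). At P7, 40 genes (0.944%) were called, 29 higher (0.684%) and 11 lower (0.26%), and at P14, 126 (2.97%), of which 67 (1.58%) were higher and 59 (1.39%) lower. Ccng1 rose at each age, by 1.58 ± 0.22, 1.83 ± 0.24 and 1.82 ± 0.23, although it passed the filter on low counts only through hyperoxic mice. Dynlrb2, a gene of the ciliated list, passed the filter only through normoxic mice, where a fall is favoured. These counts depended on single mice. Without 1 mouse of the groups compared, 3 to 14 genes were called at P3, 6 to 42 at P7 (6 without normoxic mouse 4) and 60 to 126 at P14 (60 without hyperoxic mouse 5). The test of the difference between the hyperoxia effects at P14 and P3 called 0 genes (0.0%) in edgeR, with 399 genes at an unadjusted p below 0.05, and 13 in DESeq2.

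Among called genes whose mean log2 CPM reached 5, the 4 largest decreases at P14 were in mucous (goblet) cell genes, Chil4, Clca1, Muc5b and Tff2. Of the 25 genes of the mucous list 14 passed the filter on low counts, and 5 of these fell and 0 rose. Over all genes 1.39% fell and 1.58% rose at P14. Fcgbp, Chil4 and Muc16 needed the normoxic P14 mice, where they were high, to pass it, and of the 11 that did not depend on those mice 3 fell. The median mitochondrial percentage of a mouse's Club cells also moved with the groups, from 4.17 to 4.86 in the normoxic and from 4.80 to 7.06 in the hyperoxic P14 mice, and its part in these results was not tested. Muc5b encodes the main gel-forming mucin of mouse airways. Its levels at P14 were 299.3, 580.5, 484.9 and 1228 CPM in the 4 normoxic mice and 97.3, 96.2, 72.8, 162.4 and 15.4 CPM in the 5 hyperoxic mice, without overlap (-3.16 ± 0.64, adjusted p = 0.0058, edgeR). Clca1, a secreted protein of goblet cells, had 419.6, 1418, 1118 and 2104 CPM in normoxia and 171.9, 21.6, 0, 226.6 and 0 CPM in hyperoxia (-4.31 ± 1.07, adjusted p = 0.0258). Fcgbp, a mucus-associated protein, had 18.9, 38.5, 41.7 and 101.9 CPM against 3.24, 0, 0, 8.92 and 0 CPM (-4.49 ± 0.65, adjusted p = 0.000326), and it was not tested without normoxic mouse 2, 3 or 6 or with at least 5 or 15 cells per mouse, where it no longer passed the filter. For these 3 genes each of the 4 normoxic mice lay above each of the 5 hyperoxic mice. The share of all genes that separate these mice at P14 was not counted, so the separation is a description only. Of the P14 mice with fewer than 10 Club cells, which were not tested, normoxic mouse 4 (8 cells) had no UMI of the 3 genes. Normoxic mouse 5 (8 cells) had 397.8 CPM of Muc5b, 301.9 of Clca1 and 43.1 of Fcgbp, and hyperoxic mouse 2 (9 cells) 290.6, 18.4 and 9.23 CPM, so with mouse 4 the groups overlapped.

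Chil4 was measured in the normoxic P14 mice at 4.71, 963.3, 1307 and 1676 CPM, but in the hyperoxic P14 mice a single UMI was counted, in mouse 3 (1.66 CPM), and the others were at 0. It fell (adjusted p = 0.000781, edgeR), but it passed the filter on low counts only with the normoxic P14 mice, where it was high. A fall was therefore favoured, and its values are best read as a description. No fold is given because the hyperoxic P14 group held 1 UMI. The trefoil factor Tff2 had 549.2, 1950, 2129 and 4167 CPM against 587.2, 449.5, 661.6, 672.7 and 118.5 CPM, an overlap that rested on normoxic mouse 1 (-2.41 ± 0.68, adjusted p = 0.0475). The call of Tff2 was lost in DESeq2 (adjusted p = 0.12), and in DESeq2 those of Clca1 (adjusted p = 0.209) and Chil4 (adjusted p = 0.118) were lost too, while DESeq2 gave no adjusted p for Fcgbp. In edgeR the call of Clca1 was also lost without normoxic mouse 2 or 6 or hyperoxic mouse 3 or 6 (adjusted p from 0.0526 to 0.0634), and that of Tff2 without normoxic mouse 2, 3 or 6 or hyperoxic mouse 1, 3, 5 or 6 (from 0.0776 to 0.156). Muc5b kept its call without each mouse and lost it with at least 15 Club cells per mouse (adjusted p = 0.432), where 1 normoxic P14 mouse remained. Clca1 (0.288), Chil4 (0.812) and Tff2 (0.937) were lost there too, and Tff2 also with at least 5 cells (0.325) and without cells high in genes of other cells (0.0818). In the mice above 1000 CPM of Scgb3a1 the calls of Clca1 (-4.01, adjusted p = 0.0514, edgeR) and Tff2 (-2.17, adjusted p = 0.0941) were lost. Bpifb1 at 282.8, 873.4, 969.8 and 2127 CPM against 402.3, 491.0, 188.1, 315.8 and 21.9 CPM, and Scgb3a1, did not pass the test. Over all ages 2 of the 14 mucous genes fell, Tff2 (-2.04 ± 0.46) and Fcgbp (-2.33 ± 0.59), against 3.3% of all genes. Of the 9 that passed the filter at both oxygen levels 1 fell, since Fcgbp passed only through normoxic mice.

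The mucous transcripts came from few cells. Of the 502 Club cells 82 (16.3%) had more than 1000 CPM of Scgb3a1, 291 had none, and 31 lay between 300 and 3000 CPM, near the limit, which was chosen after the values were seen. These 82 cells held 100.0% of the UMIs of Chil4, 99.9% of Clca1, 98.4% of Muc5b, 96.6% of Tff2 and 91.0% of Bpifb1. In AT2 cells, which should lack these genes, 0.342% of cells had a UMI of Muc5b and 0.107% of Clca1, at a median depth of 9297 UMIs against 24410 in Club cells. In cells annotated as ciliated (12610 UMIs) the shares were 5.48% and 1.01%. Cells above 1000 CPM of Scgb3a1 were 15 of 65 Club cells (23.1%) at P14 in normoxia and 21 of 92 (22.8%) in hyperoxia, but 7 of the 15 came from normoxic mouse 6, without which the normoxic share was 8 of 53 (15.1%). Within them the levels differed: Muc5b had 2582 CPM in normoxia and 440.2 CPM in hyperoxia, Clca1 4811 and 313.3 CPM, Tff2 8260 and 2321 CPM, and Bpifb1 4131 and 1197 CPM. In the 5 normoxic P14 mice with such cells, which here include mice with fewer than 10 Club cells, Muc5b was 2869, 4413, 2793, 1966 and 2150 CPM from 1 to 7 cells a mouse, and in the 6 hyperoxic P14 mice 218.0, 727.3, 437.2, 509.9, 514.1 and 0 CPM from 1 to 5 cells. These cells were selected on a related gene, so their levels are a description without a test. Scgb3a1 itself ran from 34060 to 73370 CPM in these cells of the normoxic mice and from 1270 to 68690 CPM in those of the hyperoxic mice, so the latter included cells with less of the selecting gene.

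**Figure D4:**
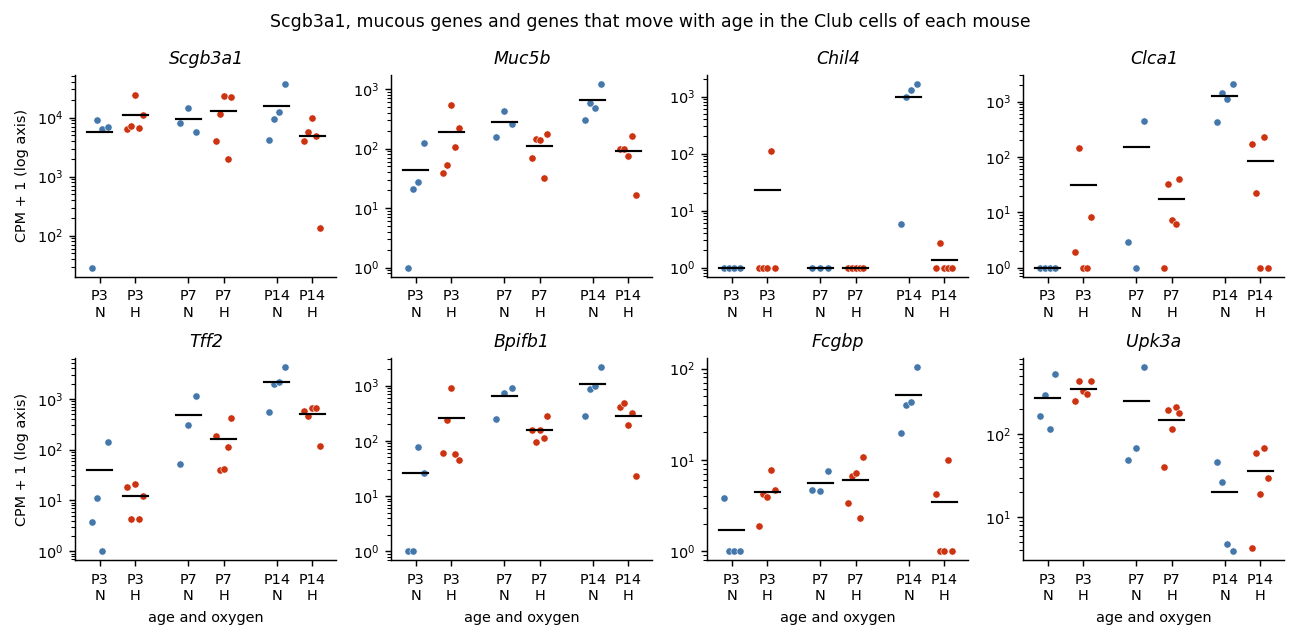
Levels of Scgb3a1, mucous genes and Upk3a in Club cells (vertical axis, CPM + 1 on a log scale), with 1 point for each of the 26 mice by age and oxygen level (N, blue, normoxia and H, red, hyperoxia) and bars at the group mean. Muc5b lies between 299.3 and 1228 CPM in the P14 normoxic mice and between 15.4 and 162.4 CPM in the P14 hyperoxic mice, and the P3 normoxic mice lie between 0 and 120.8 CPM.

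In normoxia mucous genes were higher at P14 than at P3. The comparison of ages asks how Club cells change as the lung matures, but P14 mice came from their own pools, so age and pool cannot be told apart. The comparison shares its normoxic P14 mice with that of hyperoxia at P14. Between P3 and P14, 118 genes (2.78%) were called, 74 (1.75%) higher and 44 (1.04%) lower at P14. Between P7 and P14 there were 25 (0.59%), 21 (0.496%) higher and 4 (0.0944%) lower at P14, and between P3 and P7, 0 (0.0%; 279 at an unadjusted p below 0.05, and 2 in DESeq2). The count from P3 to P14 ran from 50 (without P14 mouse 2) to 115 when single mice were left out and was 12 with at least 15 cells, and that from P7 to P14 ran from 2 (without P7 mouse 2) to 22 and was 0 with at least 15 cells. Of the 14 mucous genes 7 rose from P3 to P14, Muc5ac, Muc5b, Clca1, Tff2, Fcgbp, Chil4 and Bpifb1, and 0 fell, and of the 11 that did not depend on the normoxic P14 mice 5 rose. Muc5b had 0, 20.3, 26.3 and 120.8 CPM at P3, 154.2, 433.4 and 262.1 CPM at P7, and the P14 levels given above (P14 against P3, 4.40 ± 0.80, adjusted p = 0.00156, edgeR). Tff2 had 2.78, 10.2, 0 and 141.7 CPM at P3 (6.31 ± 0.97, adjusted p = 0.000383), and Bpifb1 rose by 5.82 ± 1.01. Fcgbp had 2.78, 0, 0 and 0 CPM at P3 (5.79 ± 0.93, adjusted p = 0.000524). Fcgbp and Chil4 passed the filter on low counts only with the normoxic P14 mice, so a rise was favoured and their values are best read as a description. Clca1 had no UMI at P3, where 0 of 83 cells allows a share of cells with a UMI of up to 3.61% (counting error only), and its increase was at least 8.94 on the log2 scale when 3 counts over the group are taken as the floor. Chil4 had no UMI at P3 or P7 in normoxia, which for the 66 cells at P7 allows a share of cells with a UMI of up to 4.55%. In the hyperoxic mice Muc5b at P3 was 37.4, 52.5, 535.8, 106.7 and 220.0 CPM and at P7 67.5, 141.4, 139.2, 31.6 and 172.4 CPM, so their P14 levels lay within or below the range of the younger hyperoxic mice.

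Some secretory and metabolic genes also rose with age in normoxia. Over all genes 1.75% were higher and 1.04% lower at P14 than at P3. Of 23 secretory products 6 rose and 0 fell from P3 to P14, with a median of 1.56, among them the polymeric immunoglobulin receptor Pigr (2.86 ± 0.51), the resistin-like gene Retnla (2.83 ± 0.48) and ceruloplasmin, Cp (1.56 ± 0.30). Of 31 xenobiotic metabolism genes 9 rose and 0 fell (median 0.635). Among them were the P450 reductase Por (1.21 ± 0.21), Aldh3a1 (2.23 ± 0.43), Gsto1 (1.56 ± 0.34) and Cyp2f2 (0.72 ± 0.16). At P14 Cyp2f2 was lower in hyperoxia (-0.77 ± 0.15, adjusted p = 0.00465). Upk3a, the uroplakin that marks a subset of Club cells near neuroendocrine bodies, fell from 164.1, 294.4, 112.7 and 520.8 CPM at P3 to 44.8, 25.7, 3.79 and 2.91 CPM at P14 (-3.34 ± 0.77, adjusted p = 0.0146). Its P7 levels of 48.3, 66.3 and 630.3 CPM spanned both ages. Epas1, a hypoxia-inducible factor subunit, rose by 1.69 ± 0.20, and Id3 (-1.99 ± 0.51), Ier3 (-2.18 ± 0.47), Fstl1 (-1.83 ± 0.29) and Nfkbia (-1.72 ± 0.47) fell.

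Further lists are read against the 3.82% of all genes that rose and the 3.3% that fell, with a median of -0.0165, and a single called gene in a list of about 30 is close to these shares. Of 19 sterol and fatty acid synthesis genes 4 rose and 0 fell, among them Msmo1, Scd2 and Acsl4, but 9 of the 19 passed the filter only through hyperoxic mice, and of the 10 others 2 rose. Of 16 hypoxia-inducible genes 3 rose, all glycolytic enzymes, Aldoa, Gapdh and Pkm (median 0.201), and of 30 keratin, junction and repair genes 4 rose, Anxa3, Clu, Plaur and Ly6a, and 2 fell, Cldn3 and Anxa2, or 3 and 2 of the 25 that passed the filter at both oxygen levels, since Plaur passed only through hyperoxic mice. Of 32 immediate early and dissociation stress genes 0 rose and 6 fell, namely Junb, Zfp36, Klf2, Klf4, Socs3 and Gadd45b, or 5 of the 30 that passed at both levels, since Klf2 passed only through normoxic mice. This list responds to tissue dissociation, and whether handling differed between the groups was not tested. Klf4 alone fell among 28 genes of secretory fate and Notch signalling (-1.28 ± 0.30). Of 21 unfolded protein response genes 0 rose and 2 fell, Selenos and Ppp1r15a. No gene was called among 19 of ion and water transport, 17 of matrix and growth factor signals and 7 imprinted growth genes. Of 17 cell cycle genes 2 rose over all ages and 0 fell, Rrm1 (1.23 ± 0.37) and H2afz (0.50 ± 0.15), but only 4 of the 17 passed the filter at both oxygen levels. At P14, where 1.58% of all genes were higher and 1.39% lower, 3 of the 17 were higher in hyperoxia and 0 lower. Of the 13 that passed the filter without the hyperoxic P14 mice, which Rrm1 did not, 2 were higher. The 3 genes were Rrm1 (2.30 ± 0.65), H2afz (0.97 ± 0.22) and Pclaf. Pclaf had no UMI in the normoxic P14 mice and 13, 39.8, 20.2, 14.3 and 32.9 CPM in the hyperoxic P14 mice. It was at least 3.51 higher on the log2 scale (adjusted p = 0.0348, edgeR).

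Genes of other cells were counted to see what else the Club cell sums held. Of 12 ciliated genes 4 could be tested and all 4 fell in hyperoxia, against 3.82% of all genes that rose and 3.3% that fell. They were Ccdc153 (-2.31 ± 0.56), Tppp3 (-1.99 ± 0.30), Dynlrb2 (-1.57 ± 0.46) and Sec14l3 (-0.88 ± 0.15). All but Sec14l3 passed the filter only through normoxic mice, where a fall is favoured. The summed ciliated genes ran from 481 to 1170 CPM in normoxic mice (median 691) and from 232 to 636 CPM in hyperoxic mice (median 425). Sec14l3, at 407.4 to 1079 CPM against 165.9 to 544.5 CPM, made up most of this sum. Whether Club cells or admixed ciliated cells lost these transcripts was not tested. Of the AT2 genes Chil1 alone was called, and 0 were called among AT1, basal, immune, endothelial, stromal and erythroid genes. The basal keratins Krt5, Krt14 and Krt17 and the receptor Ngfr were at 0 in every mouse, and no neuroendocrine gene passed the filter on low counts. Median UMIs per Club cell did not differ beyond the spread between mice at P3 (14510 ± 4171 in 4 normoxic and 22280 ± 7675 in 5 hyperoxic mice, adjusted exact permutation p = 0.333), nor at P7 or P14 (adjusted p = 0.77 for both). Median mitochondrial percentages ran from 3.51 to 5.03 in normoxia and 3.79 to 5.93 in hyperoxia at P3, and from 3.29 to 3.84 and 3.58 to 4.67 at P7.

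**Figure D5:**
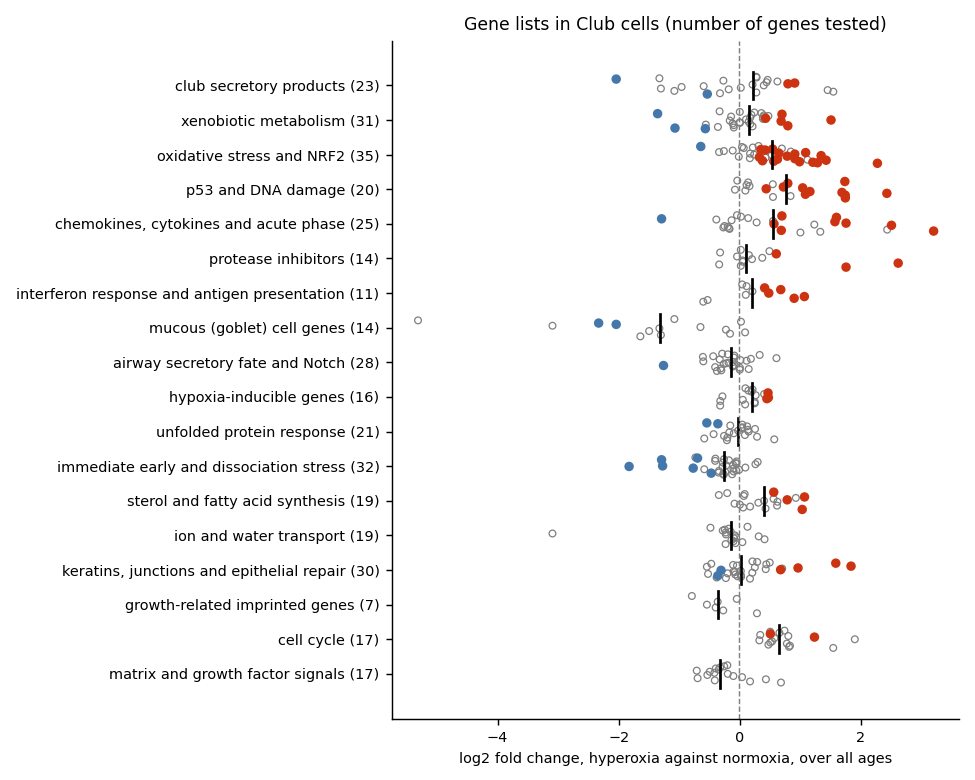
Log2 fold changes of the tested genes of each list in Club cells (horizontal axis, hyperoxia against normoxia over all ages), with 1 point for each gene, genes called higher in red, genes called lower in blue, other genes open, the median of each list as a black bar and a dashed line at the median of all tested genes (-0.0165). The p53 list shows 11 red points and the NRF2 list 18, of which 6 and 3 passed the filter on low counts only through hyperoxic mice, so the list medians describe the tested genes alone.

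The hyperoxia effect of Club cells was compared with that of 3 other epithelial types of the same 26 mice, with the mouse as a block. Against ciliated cells the effect differed for 4 of 6130 genes (0.0653%), with a lower log2 fold change in Club cells for Igfbp2, Npw and Sec14l3 (0.0489%) and a higher one for 4933434E20Rik (0.0163%). Igfbp2 did not pass the filter on low counts in Club cells on their own, and Npw and 4933434E20Rik lost their calls with equal numbers of cells (adjusted p = 0.0921 and 0.0746, edgeR). The ciliated annotation included the 248 Scgb1a1-high cells. Against AT1 cells it differed for 9 of 5315 genes (0.169%), 4 higher (0.0753%) and 5 lower (0.0941%) in Club cells. Against AT2 cells it differed for 227 of 7076 (3.21%), 77 (1.09%) with a higher and 150 (2.12%) with a lower log2 fold change in Club cells. AT1 and AT2 sums differed in depth and cell number from those of Club cells, and with equal numbers of cells of both types the counts were 1 for AT1 and 70 for AT2. With at least 5 cells per mouse they were 152 and 360, and 30 for ciliated cells.

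The values of each type below come from its own fit, over 36 mice for AT2 and 35 for AT1 cells, so their difference departs from that of the joint fit. Against ciliated cells, fitted over 34 mice, neither Spink5 (2.71 there, difference -0.09 ± 0.38, adjusted p = 0.983, edgeR) nor Lcn2 (3.15, difference -0.86 ± 0.52, adjusted p = 0.627) passed the test of a difference. Spink5 rose more in Club cells than in AT2 cells, by 2.61 against 1.25 on the log2 scale (difference 1.56 ± 0.35, adjusted p = 0.00787, edgeR), and more than in AT1 cells (difference 3.16 ± 0.64, adjusted p = 0.0167), the latter being lost with equal numbers of cells. Lcn2 rose by 2.5 in Club cells and 1.16 in AT2 cells (difference 1.62 ± 0.40, adjusted p = 0.0172). Gpx2 rose by 1.34 in Club cells and 2.73 in AT2 cells (difference -1.32 ± 0.24, adjusted p = 0.00124, lost with equal numbers of cells at adjusted p = 0.263), and Gsta3 by 0.42 and 2.12 (difference -1.68 ± 0.14, adjusted p = 9.17e-11). Over all genes 1.09% had a higher and 2.12% a lower effect in Club cells than in AT2 cells. Of 38 NRF2 list genes 2 had a higher and 2 a lower effect, and of 33 xenobiotic metabolism genes 1 and 7. Of 28 sterol and fatty acid synthesis genes 10 had a higher effect in Club cells than in AT2 cells and 0 a lower one, with a median difference of 0.699 against -0.00295 over all genes. Of the 28 genes 19 passed the filter on low counts in Club cells alone, and 8 of the 10 were among them. The median log2 fold change was 0.398 over these 19 in Club cells and -0.301 over the 28 in AT2 cells. The difference therefore includes a decrease in AT2 cells and not an increase in Club cells alone. Among p53 list genes 2 of 22 had a higher effect in Club cells than in AT2 cells. None (0) differed from ciliated or AT1 cells, where 0.0653% and 0.169% of all genes did.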

How the data were processed

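Whole lungs were dissociated, cells of each mouse were labelled with MULTI-seq barcodes, and pooled cells were run on the 10x 3' v3 platform. The authors aligned reads to mm10 with Cell Ranger 3.0.2 (per the labels), kept cells with a single sample barcode, which removes most doublets, removed contaminant clusters, integrated mice and annotated clusters. They state filters of more than 200 genes and at most 20% mitochondrial reads, and 3 Club cells exceeded the latter. The deposited values are raw UMI counts per cell, with a table that gives each cell's type, mouse, age and oxygen level and, as the authors computed it, the percentage of mitochondrial UMIs. Mice were grouped by that table and each library held several groups. No sample column was left unused (0).

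Counts were summed per mouse over its Club cells and tested with edgeR 4.0.16 (R 4.3.3; TMM, filterByExpr, quasi-likelihood) in mice with at least 10 Club cells, with Benjamini-Hochberg adjustment. Calling a gene took an adjusted p below 0.05 and detection in no fewer than 10% of Club cells of a group compared. All 6 groups shared 1 estimate of spread. Shares were compared by two-sided exact permutation tests (scipy 1.17.1), adjusted over 34 types and 3 comparisons. Effects in other types were tested with the mouse as a block. Scripts were tested on simulated data. DESeq2 1.42.0 and other settings served as alternatives, and a floor of 3 counts stood for groups at 0 and covers counting error only.

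Genes of the lists could be named, as could the 12 largest increases and decreases over all ages, and the 5 largest in each other contrast, among called genes whose mean log2 CPM reached 5. The members and lists were chosen with earlier results of these data known.

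Replicate numbers of the mice were not used to pair them. The pool was the only shared factor entered, as a replicate block among the alternatives. Whole cages were kept in room air or in hyperoxia, and the paper names an unequal sex distribution at P3 and P7 as a limitation. Cage, litter and sex did not enter any test. Promoter sequences came from RefSeq (GRCm38.p6), and gene positions from the same build. Certain genes are not reported here.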

Additional observations from a re-analysis of the deposited data

Results flagged for a closer look

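Among 154 groups of 4 to 6 mice, 16 held a mouse far from the others. The limit used is passed by about 1 in 20 groups of independent, normally distributed values. CPM values need not be so distributed, and a group with a single mouse above 0 is always flagged. The 16 groups therefore cannot be set against that rate. At P3 in normoxia, mouse 1 had a Club share of 1.78%, against 0.524% to 0.882% in the others, mouse 4 had 2866 CPM of Cyp2f2 (others 3658 to 3762), and mouse 6 had 58.3 CPM of Cdkn1a (others 120.2 to 130.8) and 141.7 CPM of Tff2 (others 0 to 10.2). At P3 in hyperoxia, mouse 3 had 142100 CPM of Scgb1a1 (others 290200 to 307900) and 24500 CPM of Scgb3a1 (others 6422 to 11190), mouse 5 had 86.7 CPM of Slpi (others 31.0 to 46.3) and 110.0 CPM of Chil4 (others 0), and mouse 2 had 144.2 CPM of Clca1 (others 0 to 7.33). At P7 hyperoxic mouse 3 had a median of 45800 UMIs per Club cell (others 26970 to 29170).

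At P14, normoxic mouse 6 was low in Chil1, with 218.3 CPM (others 670.5 to 735.4), and in Socs3, with 133.9 CPM (others 223.5 to 233.8). Hyperoxic mouse 1 of that age was high in Lcn2, with 3786 CPM (others 513.9 to 1002), and in Slpi, with 350.4 CPM (others 39.5 to 87.4). Hyperoxic mouse 6 had 41.7 CPM of Nqo1 (others 18.3 to 25.0), and hyperoxic mouse 3 had the single Chil4 UMI, 1.66 CPM.

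The hyperoxia effect differed between Club cells and another type for 23 named gene and type pairs, given as the log2 effect in Club cells minus that in the other type (edgeR). Against ciliated cells the difference was -4.13 for Igfbp2, -1.63 for Npw, -0.70 for Sec14l3 and 1.19 for 4933434E20Rik. Against AT2 cells it was -2.22 for Lrrc26, -1.68 for Gsta3, -1.63 for Kcnk2, -1.61 for Atf5 and -1.32 for Gpx2, and 1.87 for Pon1, 1.62 for Ifitm1, 1.62 for Lcn2, 1.56 for Spink5 and 1.5 for C6. Pon1 fell in AT2 cells (-1.26) and had a log2 fold change of 0.27 in Club cells. Against AT1 cells it was -1.57 for Tppp3, -1.14 for Smim3, -0.89 for Zfp36l1, -0.79 for Sec14l3 and -0.74 for Jund, and 3.16 for Spink5, 2.43 for Abca1, 0.92 for Syne2 and 0.63 for Anxa3. Igfbp2, C6 and Abca1 passed the filter on low counts in the other type but not in Club cells, and Lrrc26 and Ifitm1 in Club cells but not in AT2 cells, so only the joint fit gives a value for them. With equal numbers of cells Npw and 4933434E20Rik against ciliated cells, Gpx2, Ifitm1, Kcnk2 and Lrrc26 against AT2 cells, and every one of these genes against AT1 cells, missed the threshold.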

How the results depend on the processing

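Depth per mouse and the number of mice set the limits: with at least 15 Club cells 16 mice remained, with 1 normoxic mouse at P7 and 1 at P14, assumed to vary like the other groups, and counts of called genes became 56 over all ages (302 with at least 10 cells), 2 at P7, 8 at P14, 2 for the interaction (0 with at least 10), and 1, 0 and 12 for the ages in normoxia (P7 against P3, which had 0 with at least 10, P14 against P7, P14 against P3). Of 93 named genes called over all ages, 58 lost the call there, 20 when 1 mouse was left out, and 28 kept it in every alternative. The cause was not tested except where fewer mice or UMIs entered.

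Over all ages the count became 165 with thinned counts, 196 with 10 cells per mouse, and 145, 136 and 195 without the P3 and P7 pool, P14 pool 1 and P14 pool 2. With DESeq2 it was 20 at P3, 75 at P7, 13 for the interaction and 2 between P3 and P7 in normoxia. With no filter on low counts it was 105, 120 and 227 at P3, P7 and P14, 78 for the interaction, 48, 122 and 225 for the ages, and 54 and 87 against ciliated and AT1 cells. With at least 5 cells it was 32 at P3, 61 at P7, 1 for the interaction, 47 for P14 against P7, and 30, 360 and 152 against ciliated, AT2 and AT1 cells. Thinning gave 64 at P14 and 2 for the interaction. Equal numbers of cells gave 70 against AT2 and 1 against AT1 cells. The planned removal of Club cells with at least 3 genes of another list was not run because it removed 416 of 502 cells. Instead, after seeing the data, 85 cells high in such genes were removed, giving 10 at P3, 1 for the interaction and 15 between P7 and P14. Mice with over 1000 CPM of Scgb3a1, also added afterwards, gave 10 at P3, 1 between P3 and P7 and 65 between P3 and P14.

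With the pool as a replicate block the count was 315 over all ages (258 shared with the fit without it), 76 at P7 (39 shared), 124 at P14 and 1 for the interaction, and the P14 share kept its call (adjusted p = 0.0464 by exact permutation within pools). Leaving out 1 mouse gave 216 to 315 genes over all ages, 3 to 14 at P3, 6 to 42 at P7, 60 to 126 at P14, 0 to 8 for the interaction, 0 to 2 between P3 and P7, 2 to 22 between P7 and P14 and 50 to 115 between P3 and P14.

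As a share of epithelial cells, Club cells at P7 differed by -0.223 percentage points in hyperoxia, at P7 against P3 in normoxia by 0.0763 and at P14 against P3 by -1.08 (adjusted p = 0.353, exact permutation). With the Scgb1a1-high ciliated cells counted, the differences were 0.313 at P14 (adjusted p = 0.107), 0.118 for P14 against P7 and -0.358 for P14 against P3 in normoxia. Scgb3a1, not called over all ages, turned to 0.051 and 0.084 with at least 5 and 15 cells, 0.44 with 10 cells per mouse and 0.19 without P14 pool 2, ran from -0.54 to 0.044 when 1 mouse was left out (0.044 without P14 normoxic mouse 6), and Chil4 turned to 3.58 with at least 15 cells.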
